A study of Homo sapiens with 4 samples.

Results

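The transcription factors that hold a B cell at its germinal centre stage or turn it into a plasma cell were followed after knockdown of MYC. They are 9 genes: BCL6, BACH2, PAX5 and SPIB of the germinal centre and B-cell programme, the octamer factors POU2F2 and POU2AF1, and IRF4, PRDM1 and XBP1 of the plasma cell programme. Members were taken by gene symbol from the platform annotation, which gives them 70 of the 15154 features of the value table. All 9 had a gene row, that is a value on each of the 4 arrays after their features were averaged, among 6798 rows in all.

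The cells were OCI-Ly10, an established human lymphoma line of the diffuse large B-cell kind, assigned to the activated B-cell subtype. Cells electroporated with 4 uM of a c-myc siRNA SMARTpool carried Cy5 on every array, and the control cells Cy3. On 2 arrays (6 h and 24 h) the control was electroporated in Solution T with no siRNA, and on the other 2 (8 h and 24 h) it received 4 uM of a nonspecific siRNA against Renilla luciferase. Each combination of time and control was measured on 1 array, with 0 dye swaps, in 1 cell line, so dye bias of a feature cannot be told apart from a response. Values are log2 ratios of MYC siRNA over control. Log base and direction, not stated in the labels or headers used here, were taken from the values, the dyes and MYC itself. A ratio array gives no level of a gene, so the members cannot be ranked by abundance, and the markers of the line cannot be checked for presence. In RNA from a whole culture, fewer cells making a transcript and less of it per cell cannot be told apart. The p-values reflect variation among 4 arrays, and some of it may be technical. The arrays differ in time or kind of control, so without terms for these the SD and p-value include such differences.

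In the germinal centre, BCL6 represses the genes of activation and of plasma cell exit, and BACH2 represses PRDM1. PAX5 keeps B-cell identity genes on, and SPIB, an Ets factor, acts beside it. POU2F2 (Oct-2) binds the octamer element, where POU2AF1 (OBF-1) is its B-cell coactivator. IRF4 at high levels promotes exit from the germinal centre, PRDM1 (Blimp-1) shuts down PAX5, SPIB, BCL6 and MYC, and XBP1 drives the secretory apparatus. Lymphomas of the activated B-cell type are known for strong IRF4 and SPIB and for blocked plasma cell differentiation.

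MYC binds the E-box CACGTG with MAX, so the promoters of the members were searched for it. RefSeq windows (GRCh38.p14) were matched for 8 of the 9 members, 11 windows in all, and POU2AF1 was not matched. The 250 bases before each start held CACGTG in 0 of the 11 member windows, against 6.34% of 35116 windows of the same length. The motif reads the same on both strands. The looser pattern CANNTG, which contains CACGTG, was present in 6 of the 11 member windows and in 61.8% of all windows. The promoters of the member with the highest mean ratio in each group are shown, with both starts of PRDM1, 5′ to 3′ on the gene's strand. Capitals mark CANNTG.

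SPIB, chr19:50418688-50418937, plus strand: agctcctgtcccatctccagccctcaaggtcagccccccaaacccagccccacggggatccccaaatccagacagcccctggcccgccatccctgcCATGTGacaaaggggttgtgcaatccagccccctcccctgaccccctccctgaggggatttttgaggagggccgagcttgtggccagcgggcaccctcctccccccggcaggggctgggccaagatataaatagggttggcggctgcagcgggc
POU2F2, chr19:42132447-42132696, minus strand: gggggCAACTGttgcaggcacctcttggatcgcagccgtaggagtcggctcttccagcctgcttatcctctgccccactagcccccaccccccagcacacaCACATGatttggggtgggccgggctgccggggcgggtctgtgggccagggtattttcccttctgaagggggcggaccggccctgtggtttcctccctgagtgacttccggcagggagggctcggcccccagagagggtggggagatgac
PRDM1, chr6:106086086-106086335, plus strand: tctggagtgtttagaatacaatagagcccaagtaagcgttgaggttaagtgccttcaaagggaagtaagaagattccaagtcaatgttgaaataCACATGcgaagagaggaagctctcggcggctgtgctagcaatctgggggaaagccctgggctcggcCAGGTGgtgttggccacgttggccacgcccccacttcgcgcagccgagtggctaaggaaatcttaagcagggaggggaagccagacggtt
PRDM1, chr6:106098691-106098940, plus strand: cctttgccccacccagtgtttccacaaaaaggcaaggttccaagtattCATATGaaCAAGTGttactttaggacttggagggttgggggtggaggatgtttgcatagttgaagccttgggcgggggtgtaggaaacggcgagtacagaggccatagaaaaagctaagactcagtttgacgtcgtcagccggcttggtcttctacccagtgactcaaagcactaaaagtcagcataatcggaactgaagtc

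Counted from the start, where position -1 is the last base before it, the SPIB window has CATGTG at -154, and the first PRDM1 window has CACATG at -156 and CAGGTG at -90. The windows of IRF4, BACH2 and XBP1 held 0 CANNTG. These matches are letters in a window and say nothing of binding in these cells.

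MYC was lower on all 4 arrays, with log2 ratios of -1.26 at 6 h and -0.94 at 8 h, and of -1.03 (against no siRNA) and -0.35 (against control siRNA) at 24 h (mean -0.89 ± 0.39, SD, n = 4; limma adjusted p = 0.0146, and 0.053 without the 6 h array). The median log2 ratio of an array lay between -0.034 and 0.014, and its SD over features between 0.288 and 0.447, the widest on the 24 h array against no siRNA.

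With MYC lowered, 0 of the 9 members passed the test over all rows, where 15.8% of rows passed (limma, adjusted p under 0.05). At an unadjusted limma p under 0.05 there were 2, PRDM1 and SPIB, beside 2405 of the 6798 rows. Both were above 0 on all 4 arrays, as were 19.4% of rows. When time and kind of control were terms of the limma fit, these 2 rose, and 12.6% of all rows passed as higher in that fit. That fit takes most of its spread from the pooled rows (17.5 prior degrees of freedom against 1 residual). PRDM1 belongs to the plasma cell factors and SPIB to the germinal centre factors, so the 2 genes with the highest means stand in opposite programmes.

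**Figure D1:**
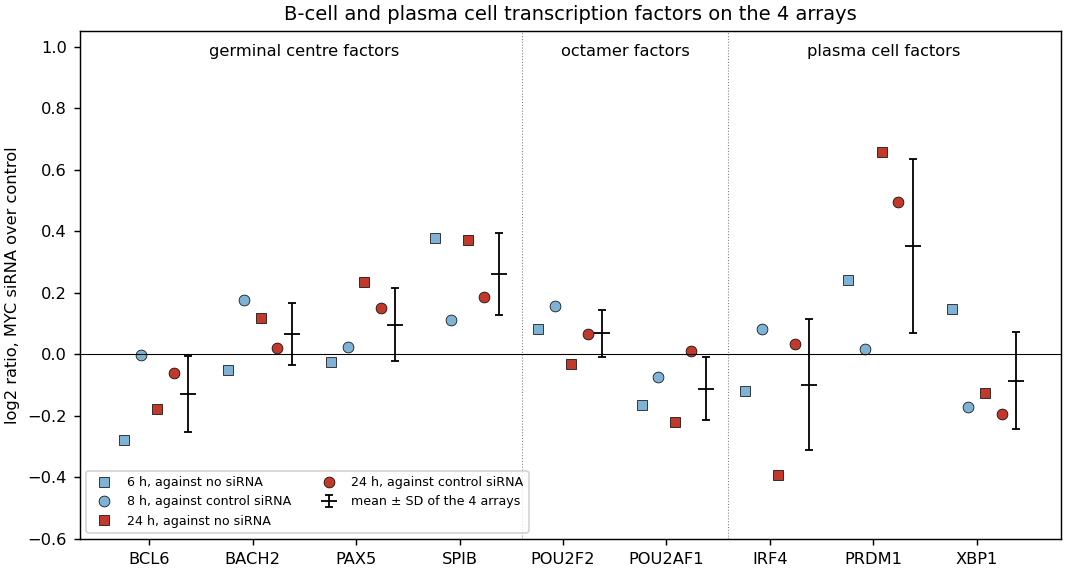
Log2 ratio of MYC siRNA over control for each of the 9 members on each array, with squares for arrays against no siRNA, circles for arrays against control siRNA, blue for 6 h and 8 h and red for 24 h. Bars are the mean ± SD of the 4 arrays. PRDM1 and SPIB lie above 0 on all 4 arrays and BCL6 below 0 on all 4.

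SPIB, the Ets factor, had log2 ratios of 0.38 at 6 h and 0.11 at 8 h, and of 0.37 (against no siRNA) and 0.19 (against control siRNA) at 24 h. Both arrays against no siRNA were thus higher than both against control siRNA, at either time. The mean was 0.26 ± 0.13 (SD, n = 4), or 119.9% of control, above 88.0% of rows (limma adjusted p = 0.0729, and 0.0388 with time and control as terms). Over the alternatives its adjusted p ran from 0.0388 to 0.184. Of 5 SPIB features, all with a value on each array, 3 were above 0 on every array and 4 had a mean above 0. Features 24340_1 (0.50 ± 0.17) and 19263_1 (0.34 ± 0.07) rose (SD, n = 4; adjusted p = 0.0227 and 0.0459 over single features), while 30237_1 averaged -0.03. The order by kind of control seen in the gene row held for 16678_1, 19286_1 and 24340_1, but not for 19263_1 and 30237_1.

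By gene row, BCL6, the germinal centre repressor, was the 1 member below 0 on all 4 arrays. Its log2 ratios were -0.28 at 6 h, -0.001 at 8 h, and -0.18 (against no siRNA) and -0.06 (against control siRNA) at 24 h (mean -0.13 ± 0.12, SD, n = 4; limma adjusted p = 0.31). On the 8 h array the ratio was at 0 to 2 decimals. The gene row mixes features that differ between arrays, since 3 of its 6 features were empty on some. Of the 3 complete features, 32487_1 (-0.23 ± 0.07) and 33451_1 (-0.33 ± 0.10) were below 0 on every array, and 26535_1 averaged -0.05. Feature 33451_1 passed only when features with a value on all 4 arrays were fitted (adjusted p = 0.0385, against 0.0538 over features with at least 2 values). The highest BCL6 value, 0.36, came from feature 19268_1, which had a value on 1 array and was not tested.

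PAX5, the B-cell identity factor, had log2 ratios of -0.02 at 6 h and 0.02 at 8 h, and of 0.24 (against no siRNA) and 0.15 (against control siRNA) at 24 h (mean 0.10 ± 0.12, SD, n = 4; limma adjusted p = 0.448). Both 24 h arrays were higher than both early ones. Its 6 complete features averaged between -0.20 and 0.26, and 4 of them were higher at 24 h than at the early time under both kinds of control.

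BACH2, the repressor of PRDM1, had log2 ratios of -0.05 at 6 h, 0.18 at 8 h, and 0.12 (against no siRNA) and 0.02 (against control siRNA) at 24 h (mean 0.07 ± 0.10, SD, n = 4; limma adjusted p = 0.603). The small mean came from features that went both ways. BACH2 has 25 features, the most of any member, of which 16 averaged above 0 and 9 below. These counts include 12 features that were empty on some arrays, so the gene row mixes features that differ between arrays. At 8 h it includes 35155_1, at 1.03 and with no value on another array. Over complete features the mean of BACH2 was 0.04. Among its 13 complete features, 4 were above 0 on every array and 2 below, with means between -0.40 and 0.42. Feature 30686_1 rose (0.42 ± 0.20, SD, n = 4; adjusted p = 0.0384 over single features), while 30817_1 averaged -0.40 ± 0.33 and 30617_1 -0.33 ± 0.10 and did not pass there (adjusted p = 0.0669 and 0.0535).

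The octamer factor POU2F2 showed the same split. Its gene row had log2 ratios of 0.08 at 6 h and 0.16 at 8 h, and of -0.03 (against no siRNA) and 0.06 (against control siRNA) at 24 h (mean 0.07 ± 0.08, SD, n = 4; limma adjusted p = 0.582). All 14 features were complete, and 7 averaged above 0 and 7 below, from -0.46 (33832_1) to 0.39 (29928_1). Feature 25014_1 rose (0.36 ± 0.16, SD, n = 4; adjusted p = 0.0499 over single features). Feature 33832_1 did not pass there (-0.46 ± 0.37, SD, n = 4; adjusted p = 0.0543).

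POU2AF1, the coactivator of POU2F2, had log2 ratios of -0.17 at 6 h and -0.07 at 8 h, and of -0.22 (against no siRNA) and 0.01 (against control siRNA) at 24 h (mean -0.11 ± 0.10, SD, n = 4; limma adjusted p = 0.371). Feature 32057_1 fell evenly, with -0.33 at 6 h, -0.40 at 8 h, and -0.42 (against no siRNA) and -0.34 (against control siRNA) at 24 h (mean -0.37 ± 0.04, SD, n = 4; adjusted p = 0.036 over single features). It was the 1 member feature to fall in that fit, and the other 3 POU2AF1 features averaged between -0.11 and 0.18.

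Over single features with at least 2 values, 66 of the 70 member features were tested, since 3 had 1 value and 1 of IRF4 had none. Of these, 4 rose and 1 fell, against 4.16% of all tested features higher and 7.13% lower. Leaving out the 6 h array, or the 24 h array against no siRNA, brought the 5 calls to 0, and leaving out the other 24 h array brought them to 2. Over the 52 complete member features 9 rose and 5 fell, against 7.09% higher and 12.3% lower of all complete features. BACH2 and POU2F2 then had features past the test in both directions. The SD of feature means within a gene was 0.264 for BACH2 and 0.249 for POU2F2, against a median of 0.187 over 814 genes with at least 3 complete features, and larger than in 76.4% and 71.6% of them. It was 0.0951 for IRF4 and 0.115 for PRDM1, at the low end. Which part of a transcript a feature covers was not analysed here, and features of 1 gene are not replicates.

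**Figure D2:**
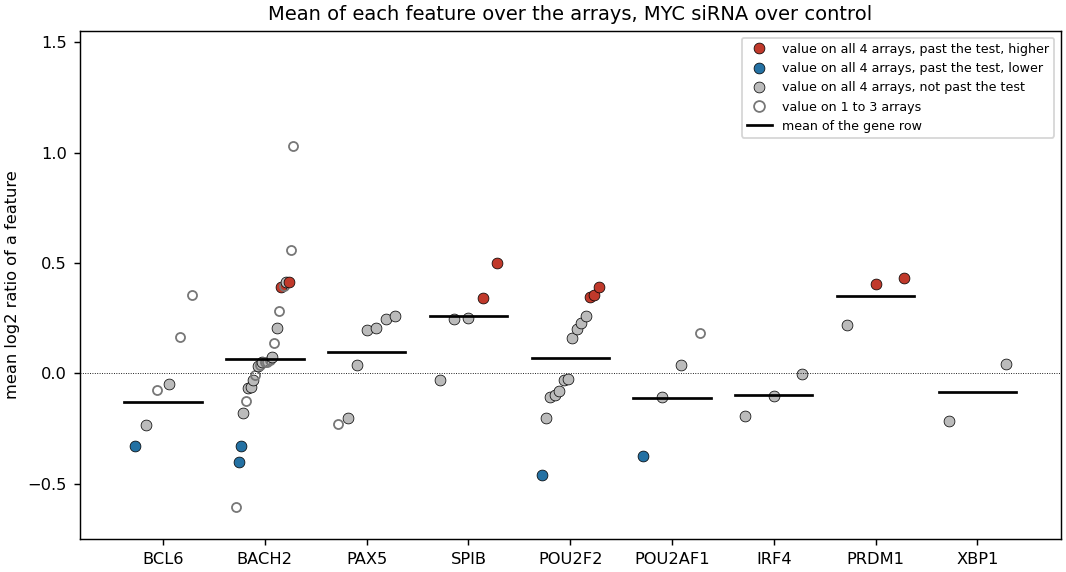
Mean log2 ratio of each member feature over the arrays on which it had a value. Red and blue mark features past the test as higher or lower in the fit over features complete on all 4 arrays, grey those not past it, open circles features with empty cells and the bar the mean of the gene row. Features of BACH2 and POU2F2 spread to both sides of 0, while the 3 of PRDM1 lie above it.

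PRDM1, the repressor that ends the B-cell programme, had the highest mean of the members. Its log2 ratios were 0.24 at 6 h and 0.02 at 8 h, and 0.66 (against no siRNA) and 0.49 (against control siRNA) at 24 h. Both 24 h arrays were higher than both early arrays, and both at 24 h and early the array against no siRNA was the higher. The mean of 0.35 ± 0.28 (SD, n = 4) is 127.6% of control and lay above 94.5% of rows (limma adjusted p = 0.0631, and 0.00851 with time and control as terms). Over the alternatives its adjusted p ran from 0.00851 to 0.192. The exact sign-flip permutation test gave a two-sided p of 0.125 for PRDM1, SPIB and BCL6 each, the smallest that 4 arrays allow.

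All 3 features of PRDM1 were higher at 24 h than early under both kinds of control, by unequal amounts. Feature 29483_1 had log2 ratios of 0.30 at 6 h, 0.09 at 8 h, and 0.84 (against no siRNA) and 0.50 (against control siRNA) at 24 h. Feature 16371_1 had 0.20, 0.09, 0.82 and 0.50 on the same arrays. Feature 35211_1 had 0.22, -0.13, 0.31 and 0.48, and was below 0 on the 8 h array. Its difference between 24 h and 6 h with no siRNA as the comparison was 0.087, against 0.54 and 0.62 for the other 2 features, and 35211_1 passed in neither feature fit. Features 29483_1 and 16371_1 passed over complete features (adjusted p = 0.0353 and 0.0459) but not over features with at least 2 values (adjusted p = 0.0526 and 0.0653).

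IRF4, which drives both activation and plasma cell fate, had a gene row that divided by kind of control. Against no siRNA its log2 ratio was -0.12 at 6 h and -0.39 at 24 h. With control siRNA as the comparison, the 8 h ratio was 0.08 and the 24 h ratio 0.03. The mean was -0.10 ± 0.21 (SD, n = 4; limma adjusted p = 0.505), and without the 24 h array against no siRNA it was -0.00078. All 3 measured features had their lowest value on that array, from -0.52 to -0.33. Both arrays against no siRNA were below 0 and both against control siRNA above it, a pattern found in 4.53% of rows. Of the single features 24729_1 alone showed it, since 22122_1 was at -0.21 at 24 h and 16614_1 at -0.05 at 8 h when set against control siRNA. The difference, no siRNA minus control siRNA, was -0.31 with a standard error of 0.18 and did not pass (limma adjusted p = 0.638). Experiment and kind of control cannot be told apart.

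XBP1, the driver of the secretory programme, had log2 ratios of 0.15 at 6 h, -0.17 at 8 h, and -0.13 (against no siRNA) and -0.19 (against control siRNA) at 24 h (mean -0.09 ± 0.16, SD, n = 4; limma adjusted p = 0.527). The 6 h array was the 1 above 0. Its 2 features differed, 29232_1 at -0.21 ± 0.17 and 24504_1 at 0.04 ± 0.15 (SD, n = 4). The active XBP1 protein is made after ERN1 splices its mRNA, and the spliced form was not analysed here.

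**Figure D3:**
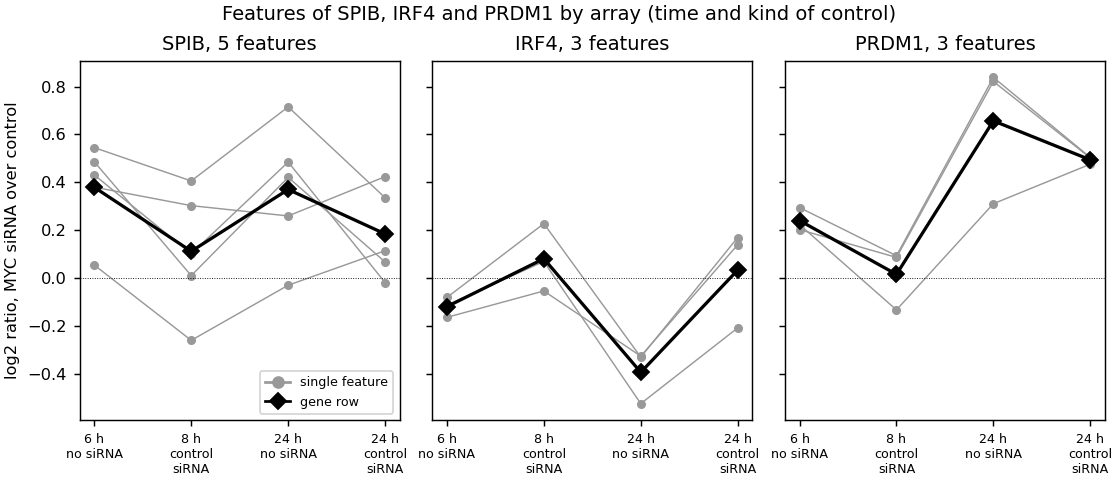
Log2 ratios of the complete features (grey) and of the gene row (black) of SPIB, IRF4 and PRDM1 on the 4 arrays, ordered by time. All 3 features of PRDM1 are higher at 24 h than at the early time under either control, and all 3 of IRF4 are lowest on the 24 h array against no siRNA.

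Set side by side, the 4 germinal centre factors had a median mean log2 ratio of 0.08 and the 3 plasma cell factors one of -0.09, against -0.003 over all rows. The median of the plasma cell factors is the value of XBP1, since PRDM1 lies well above and IRF4 just below it. The average of the plasma cell factors was 0.06, and that of the germinal centre factors 0.07. By array, the germinal centre and plasma cell medians were -0.04 and 0.15 at 6 h, and 0.07 and 0.02 at 8 h. At 24 h they were 0.18 and -0.13 against no siRNA, and 0.09 and 0.03 against control siRNA. By these medians, the order was reversed on the 6 h array. With 3 genes, each plasma cell median is the value of 1 gene, and that gene changed between arrays. XBP1 gave it on both arrays set against no siRNA, PRDM1 on the 8 h array and IRF4 on the remaining array. On that remaining array PRDM1 lay far above the median, at 0.49, and XBP1 below it, at -0.19. The order there depends on the summary used, since by the mean over genes the plasma cell factors were the higher. Neither order was tested. The octamer pair had a median of -0.02. For the 7 members other than PRDM1 and SPIB, the 95% intervals of the mean from limma together ran from -0.33 (BCL6) to 0.29 (PAX5).

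Between 24 h and the early arrays, 0 of the 9 members passed (limma, adjusted p under 0.05), as did 0.118% of rows. An unadjusted limma p under 0.05 was reached by 1 member, PRDM1, and by 687 of the 6798 rows. PRDM1 averaged 0.58 at 24 h and 0.13 early, a difference of 0.45 with a standard error of 0.18 (limma adjusted p = 0.389). It was 0.42 higher at 24 h against no siRNA and 0.48 higher against control siRNA. Rows that were higher at 24 h under both controls made up 27.4% of the table. MYC itself was less reduced at 24 h (-0.69) than early (-1.10), with a difference of 0.41 (adjusted p = 0.467).

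PAX5 averaged 0.19 at 24 h and -0.001 early, a difference of 0.19 (standard error 0.18; limma adjusted p = 0.795). IRF4 averaged -0.18 at 24 h and -0.02 early (difference -0.16, adjusted p = 0.843). XBP1 averaged -0.16 at 24 h and -0.01 early (difference -0.15, adjusted p = 0.859). POU2F2 averaged 0.02 at 24 h and 0.12 early (difference -0.10, adjusted p = 0.912). For BCL6, BACH2, SPIB and POU2AF1 the difference was between 0.006 and 0.03, with opposite signs under the 2 kinds of control for each.

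**Figure D4:**
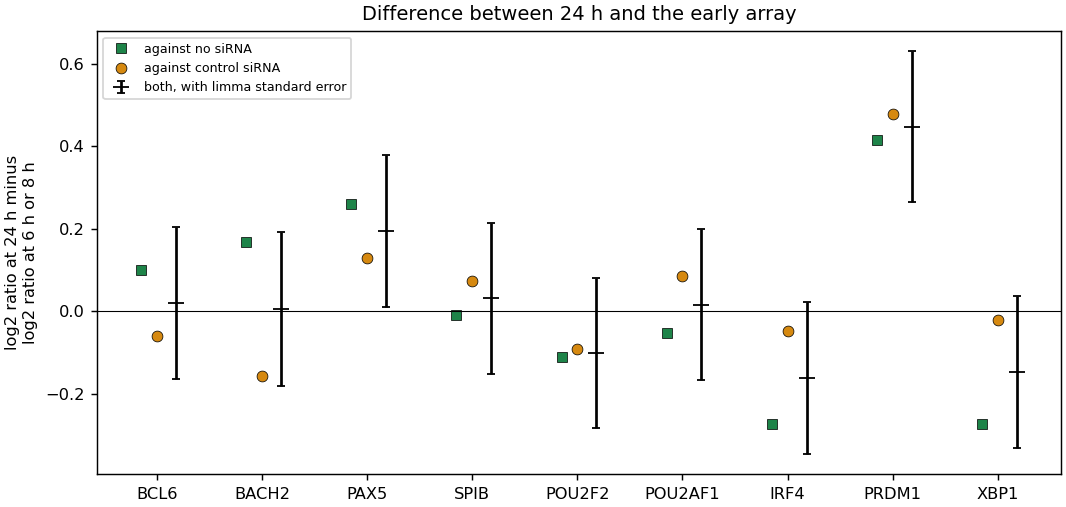
Log2 ratio at 24 h minus that at the early time (6 h against no siRNA, 8 h against control siRNA) for each member. Squares and circles are the differences within each kind of control, and the bars limma's estimate over both with its standard error. PRDM1 is highest, at 0.42 and 0.48, and 0 members pass the test.

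Between the kinds of control 0 members passed, as did 0.0883% of rows. An unadjusted p under 0.05 in limma was reached by 0 members and by 685 of the 6798 rows. SPIB averaged 0.37 against no siRNA and 0.15 against control siRNA, BCL6 -0.23 and -0.03, and XBP1 0.01 and -0.18, with adjusted p of 0.77, 0.824 and 0.83.

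The genes whose 4 values lay nearest to a member's, by Euclidean distance among 3945 named genes outside the members, were found for each. For PRDM1 they were RFX1 (0.115), RGS2 (0.123) and GNG11 (0.133), for IRF4 CCNE1 (0.0451), ARPC2 (0.0573) and AVEN (0.0642), and for SPIB TTC19 (0.0246), H2AB3 (0.0613) and TMEM131L (0.0799). RGS2, a regulator of G-protein signalling, had log2 ratios of 0.21 at 6 h, -0.05 at 8 h, and 0.69 (against no siRNA) and 0.59 (against control siRNA) at 24 h. BCL6 lay nearest to PECAM1 (0.0635), PAX5 to CCDC71L (0.0453) and POU2AF1 to RGS20 (0.0532). With 4 values, such distances are a description of these arrays.

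Other transcription factors of B cells were counted beside the members. Of 33 measured of a list of 37, ETS1 (-0.63 ± 0.32) and HHEX (-0.48 ± 0.27) fell, REL (0.33 ± 0.17) and NFKB2 (0.30 ± 0.10) rose (SD, n = 4 each), and 29 did not pass. The counts of this list and of those that follow stand beside the 15.8% of all rows that passed, 695 lower and 378 higher, and nothing particular to a list is read from them. The limma adjusted p of these 4 was 0.019, 0.026, 0.0452 and 0.0458. ETS1 is the founding Ets factor, HHEX a homeobox factor, and REL and NFKB2 are NF-kappaB subunits. ETS1 rested on 1 feature and was at -0.70 at 6 h, -0.72 at 8 h, and -0.92 (against no siRNA) and -0.18 (against control siRNA) at 24 h. EBF1, the partner of PAX5, was at 0.07. The median of the list was 0.04. When the 6 h array was left out 0 rows of the table passed, and when the 24 h control siRNA array was, 4 lower and 0 higher rows did. Of the genes of the lists past the test, ETS1, LMAN1 and MYC still passed without the 8 h array, MYC without the 24 h control siRNA array, and CD44 and MYC without the 24 h array against no siRNA.

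Among 15 measured partners, relatives and regulators of the members (of 25 listed), JUN rose (0.32 ± 0.13, SD, n = 4; limma adjusted p = 0.0399) and 14 did not pass, with a median of -0.07. JUN and JUNB (0.28) are AP-1 proteins, and BATF3 (-0.24) is of a family that pairs with such proteins at sites shared with IRF4. ATF4, a factor of the stress response to which XBP1 belongs, had the lowest mean, -0.26.

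Genes known as targets of the members were counted as lists. Of 14 measured genes that BCL6 represses, CD44 rose (0.46 ± 0.12, SD, n = 4; limma adjusted p = 0.019) and 13 did not pass, with a median of 0.07. GPR183, a receptor that guides B cells in the follicle, was at 0.34, CXCL10 at -0.32 and CD69 at -0.23. Of 7 genes that PAX5 activates, CD79A (0.41 ± 0.27) and CD72 (0.41 ± 0.32) rose (adjusted p = 0.039 and 0.0482), and BLNK (-0.22), CR2 (-0.15) and the other 3 did not pass, with a median of 0.07.

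Of 7 genes that PRDM1 represses, MYC fell, CD79A (also on the PAX5 list) rose and 5 did not pass, with a median of 0.13. MYC is the siRNA target here, so its place on that list says nothing of PRDM1. SYK, a kinase of the B-cell receptor, was at 0.25 and CD22 at -0.06, next to the 0.35 of PRDM1.

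Of 18 measured genes that XBP1 induces, LMAN1, a cargo receptor of secretion (-0.57 ± 0.35), and SPCS3, of the signal peptidase (-0.33 ± 0.12), fell (SD, n = 4; limma adjusted p = 0.0251 and 0.0356), and 16 did not pass. The median was -0.11, and 4 of the 18 had a mean above 0, with EDEM1 at 0.14 and SSR4 at 0.11. HSP90B1 had the lowest mean, -0.65 ± 0.77 (SD, n = 4), but did not pass (limma adjusted p = 0.0861). Its log2 ratios were -0.593 at 6 h, 0.2275 at 8 h, and -1.655 (against no siRNA) and -0.5635 (against control siRNA) at 24 h. For the octamer factors 16 genes were listed (immunoglobulin, immunoglobulin-like and J chain), and 5 of them were measured. Of these 5, IGLL1, the lambda-like one, fell (-0.31 ± 0.16, SD, n = 4, limma adjusted p = 0.0487). IGHM (-0.10), IGHD (-0.05), IGHA1 (0.04) and JCHAIN (0.05) did not pass, and the median of the 5 was -0.05.

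Markers of B-cell and plasma cell stage were likewise mixed. Of 9 mature B-cell surface markers CD79A rose, 8 did not pass and the median was -0.01, with CD79B at 0.20, CD22 at -0.06 and CR2 at -0.15. Of 5 plasma cell surface markers SLAMF7 rose (0.39 ± 0.22, SD, n = 4; limma adjusted p = 0.0346) and 4 did not pass. SDC1 (CD138), the classical plasma cell marker, was at 0.09, CD38 at 0.29, TNFRSF17 at 0.05 and CD27 at 0.003. CD38 split by control, at -0.001 (6 h) and -0.32 (24 h) against no siRNA, but 0.59 (8 h) and 0.89 (24 h) against control siRNA.

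Markers of other cell types lay near or above 0 beside these values. Of 10 T cell markers 0 passed in limma and 7 averaged above 0 (median 0.16, from -0.09 for CD28 to 0.33 for CD4). The 2 measured monocyte markers, CD68 and ITGAM, were at 0.17 and 0.09. Of 4 erythroid markers GATA1 rose (0.48 ± 0.19, SD, n = 4; limma adjusted p = 0.0204, 1 feature) and the globin genes HBA1, HBB and HBG1 averaged between -0.07 and 0.02. The cultures were of 1 established B-cell line, so these markers are not read as a sign of other cells. What their ratios reflect was not tested.

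**Figure D5:**
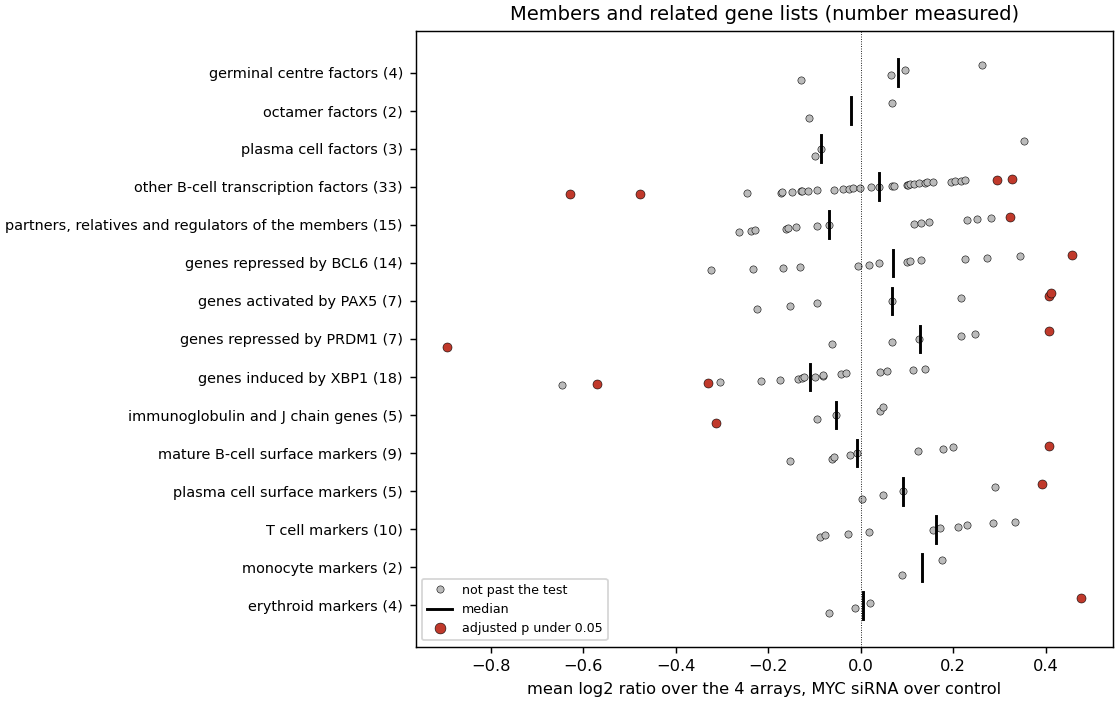
Mean log2 ratio over the 4 arrays for each measured gene of the member groups and of the related lists, with red for genes past the test and a black bar for the median of a list. The 9 members lie between -0.13 and 0.35 and hold 0 red points, while the other B-cell transcription factors run from -0.63 to 0.33.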

How the data were processed

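Each of the 4 samples is a 2-colour array, and the deposited value table holds the authors' ratios per feature, read here as log2 ratios. How spots were filtered and normalized is not given in the sources used here. Of 15154 features, 10165 carry 1 gene symbol, 4 several and 4985 none, and symbols were updated through Entrez ID for 10124. Features of 1 symbol were averaged per array, and the 6798 rows with a value on all 4 arrays were fitted with limma 3.58.1 (R 4.3.3, lmFit and eBayes) against 0, or with time class and kind of control as terms, with Benjamini-Hochberg adjustment over all rows and a threshold of 0.05. Single features needed at least 2 values. The fits were tested on simulated data. Arrays were grouped by the labelled time and control.

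The members and lists were chosen with earlier results of these data known. Beside the members and MYC, genes were named if they passed the test, were among the 2 lowest or 2 highest means of a list, or were among the 3 nearest to a member. EBF1, SDC1, IGHD, TNFRSF17, CD38 by array and the globin genes were added after their values were seen. The alternatives were other feature summaries, scalings, moderation, terms and left-out arrays. Precision is limited by the number of arrays.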

Additional observations from a re-analysis of the deposited data

Results flagged for a closer look

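XBP1 feature 29232_1 had 1 array far from the others: its log2 ratio was 0.041 at 6 h, against -0.306 at 8 h, and -0.299 (against no siRNA) and -0.295 (against control siRNA) at 24 h. The gap, as a share of the range, exceeded Dixon's 95% critical value. Of 62 sets of 4 values tested this was 1, and chance alone would give about 3.1.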

How the results depend on the processing

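Counts of rows moved with the fit. Lower and higher rows numbered 695 and 378 on gene rows, 1251 and 720 over single features complete on all 4 arrays (959 and 560 over those with at least 2 values), and 1124 and 856 with time and control as terms, where 2 members passed in place of 0. Leaving out 1 array gave 0 to 310 lower and 0 to 131 higher rows. For 24 h minus early, 8 rows became 61 with arrays centred, 74 over complete single features, and 0 with arrays scaled or the control term dropped (0 to 3 without 1 array and with that term dropped). For no siRNA minus control siRNA, 6 became 89 with arrays centred, 57 over complete single features, and 0 with arrays scaled or the time term dropped (1, 1, 19 and 26 without 1 array and with that term dropped). Member features past the test numbered 5, 14 over complete features and 0 to 5 without 1 array, alternatives chosen after seeing the data. The plasma cell average was 0.056 against a median of -0.09. The difference of 24 h minus early turned to -0.013 (BACH2) and -0.073 (SPIB) with arrays scaled and to -0.019 (POU2AF1) in the median over complete features. Without 1 array and with the control term dropped it ran from -0.12 to 0.16 for BCL6, -0.11 to 0.12 for BACH2, -0.10 to 0.17 for SPIB, -0.10 to 0.13 for POU2AF1, -0.37 to 0.053 for IRF4 and -0.31 to 0.013 for XBP1, and it also turned to -0.039 (BCL6), -0.043 (BACH2), -0.061 (SPIB) and -0.031 (POU2AF1). No siRNA minus control siRNA turned to 0.06 for BACH2 in the median over complete features and -0.023 for PAX5 with arrays scaled. Without 1 array and with the time term dropped it ran from -0.15 to 0.020 for BACH2, -0.11 to 0.15 for PAX5 and -0.045 to 0.43 for PRDM1, and it also turned to 0.014 (BACH2), -0.046 (PAX5) and -0.015 (PRDM1). For PRDM1 the median over complete features was 0.40, and 2 of the 3 passed in the fit over complete features, while MYC was -0.77 without the 6 h array. Apart from fits with fewer arrays, the cause was not tested. No paired analysis by replicate number was possible because the numbers follow only the listing order. The kind of control, which the labels share between an early and a 24 h array, was a term in the fits on time.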
